A study of Homo sapiens with 6 samples.

Results

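The genes of the cytosolic ribosomal proteins were compared between PrEC cells carrying a hairpin against the atypical protein kinase C PKCλ/ι (labelled shPKCl/i, written shPKCi here) and PrEC cells carrying the control hairpin shNT. Members were the genes whose symbol begins with RPL or RPS and a digit, with RPLP0, RPLP1, RPLP2, RPSA and FAU added, and with RPS6K kinases and pseudogenes left out. The rule took 70 of the 18404 genes measured. RPS19BP1, which encodes a protein that binds RPS19, and the non-coding transcript RPL34-DT met the rule by their symbols only, so 68 ribosomal protein genes were described, 25 of the small and 43 of the large subunit. RefSeq lists 88 protein-coding genes under the same rule. Of the other 20, 11 had only probe sets annotated with several symbols and 9 had no listed probe set, and these 20, among them RPLP0, RPSA and RPS27A, were not analysed here.

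PrEC is an immortalized line of normal human prostate epithelial cells. It was grown in prostate epithelial growth medium, and both lines were collected 48 hours after plating under basal conditions. Each group holds 3 samples, which the series calls biological replicates, with 1 array per sample, and this number limits the precision. The 2 groups share the parent line and the medium, both carry a hairpin, and differ in which one; whether a line is 1 clone or a pool, and how many hairpin sequences were used, is not given in the sources used here.

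A ribosome joins a small subunit, which reads the mRNA, to a large subunit, which forms the peptide bond and carries the tunnel through which the new chain leaves. Most of the mRNAs of its proteins begin with a 5′ terminal oligopyrimidine (TOP) tract, through which mTORC1 and the binding protein LARP1 control their translation. Ribosomal proteins left outside the ribosome are known to bind MDM2 and so to stabilise p53, and a few have a paralogue that can take their place. The arrays measure transcript level only, and neither translation nor ribosome number was measured.

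PRKCI, the gene of the targeted kinase, had intensities of 1635, 1428 and 1843 in shNT and of 800.3, 810.2 and 754 in shPKCi, 2.06-fold lower (limma adjusted p = 0.000279). By signal, ranked over all genes, the basal epithelial keratin gene KRT5 was at percentile 99.6 and KRT14 at 97.1. Among other basal markers NGFR was at 51.8 and KRT15 at 34.0. The luminal keratin genes KRT8, KRT18 and KRT19 were at 95.9, 96.3 and 95.8, and the prostate secretory gene KLK3 was at 32.6. The leukocyte gene PTPRC was at 1.17. Of 10 basal markers 6 were lower in shPKCi (60%), where 8.95% of all genes were lower and 9.55% higher. The summed intensity of the basal markers ran from 17208 to 19381 in shNT and from 14238 to 14670 in shPKCi. Of 10 fibroblast and smooth muscle markers 2 were lower (20%), ACTA2 and COL1A1, with sums of 805 to 872 against 498 to 516. Luminal sums overlapped between the groups (3025 to 4049 against 3473 to 3673), and 2 of 7 measured luminal markers were lower (28.6%). Endothelial and blood markers summed to 432 to 462 and 395 to 409, with 1 of 9 higher and 1 lower (11.1% each). Their part in the results below was not tested, and in a bulk extract a change in the mix of cells and a change in RNA per cell cannot be told apart. The array of shNT replicate 2 correlated with the others at 0.974 to 0.989, against 0.982 to 0.996 among the other 5.

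Most ribosomal protein transcripts differed little between the lines. In shPKCi 3 of the 68 rose and 7 fell, by the limma fit over all genes with Benjamini-Hochberg adjusted p under 0.05. Among all genes 9.55% were higher and 8.95% lower, so the members' share of 10.3% lower was near the background and their 4.41% higher was below it. At an unadjusted p under 0.05, 4 were higher and 14 lower, against 2764 and 2709 of all 18404 genes. The log2 fold change was within a fold of 1.2 for 50 members (73.5%, against 69.5% of all genes), and no member reached a log2 fold change of 1 in either direction. The median log2 fold change was -0.11, beside -0.02 over all genes, and it was negative for 45 of 68 members (66.2%, against 53.0%). The balance moved with 1 array: without shNT replicate 2, 2 members were higher and 12 lower (17.6%, against 10.6% of all genes in that fit). Fewer were lower without shNT replicate 1 (4, or 5.88%, against 6.83% of all genes in that fit). Without shPKCi replicate 1 the count was also 4 (5.88%, against 5.74%). Without shPKCi replicate 2, 3 were lower (4.41%, against 5.69%) and 1 was higher (1.47%, against 5.42%). The lower shares in these fits were thus near those of all genes. Under a cyclic loess between arrays and after removal of each array's trend with signal, 14 were lower in each case (20.6%, against 10.1% of all genes in either fit), and with array weights 16 (23.5%, against 12.7%).

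**Figure D1:**
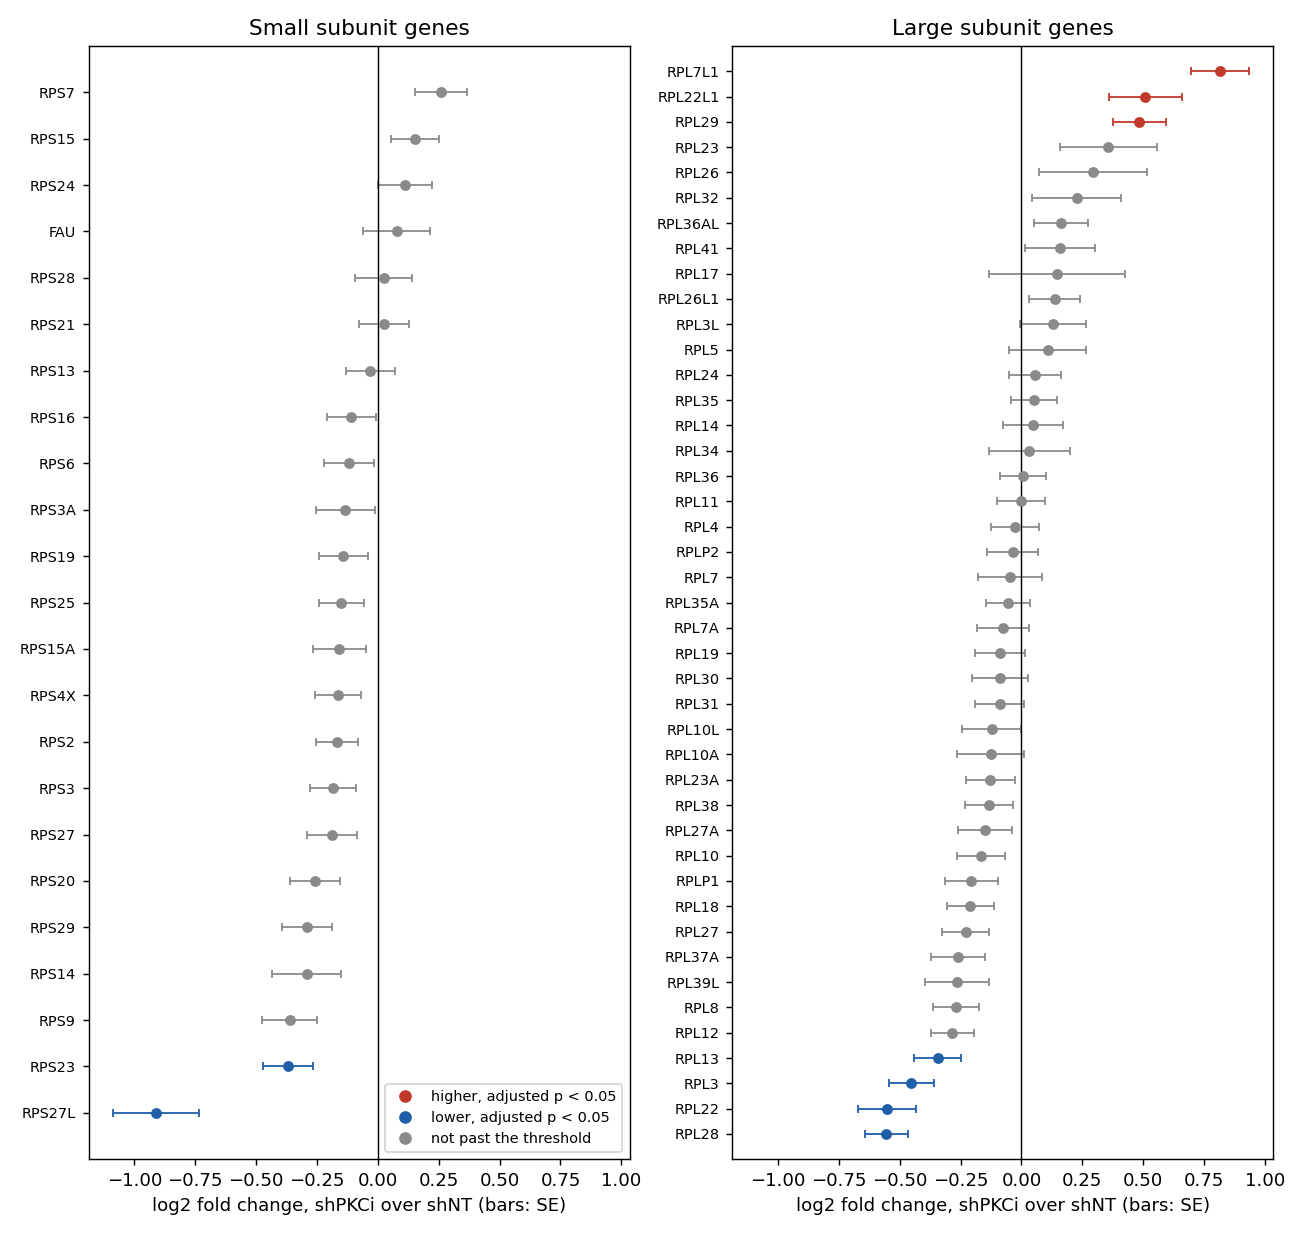
Log2 fold change of shPKCi over shNT (horizontal axis, bars are the SE) for 66 ribosomal protein genes, small subunit on the left and large subunit on the right; colour gives the limma call. Most points lie between -0.25 and 0.25, RPL7L1 is the highest at 0.82 and RPS27L the lowest at -0.91; both Y-linked paralogues are not shown.

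The 6 lower genes described here are RPS27L, RPL28, RPL22, RPL3, RPS23 and RPL13, and the 3 higher ones are RPL7L1, RPL22L1 and RPL29. The remaining lower gene, a Y-linked paralogue, is in the counts but its levels are not given. The sequence around the RefSeq start of each of the 9 (GRCh38.p14, 20 bases before the start and 10 from it, 5′ to 3′ on the transcribed strand) is shown. It separates genes with a pyrimidine run over the start from genes without one. A TOP tract lies at the 5′ end of the mRNA, while the run here may begin before the start. The run alone therefore does not settle which mRNAs carry a TOP tract. Capitals mark that run of at least 5 C or T or, where there is none, the ETS core CCGGAAGT, which is the binding motif of GABPA and related factors. For RPL13, with 3 starts in the table, the first start with a run was taken.
RPL28, chr19:55385912-55385941, plus strand: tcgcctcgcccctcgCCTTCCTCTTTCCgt
RPL22, chr1:6199586-6199615, minus strand: ctgcgtagttcgctcaCCTCCCTTTCTaac
RPL3, chr22:39319614-39319643, minus strand: gacccgtaaggccgaccggCCTCTaccggc
RPS23, chr5:82278345-82278374, minus strand: ctccttcctgcggtgCTTCTCTCTTTCgct
RPL13, chr16:89560662-89560691, plus strand: gtgcattgcggggccgCTTCCTTTCCgctc
RPL29, chr3:51995886-51995915, minus strand: tgctgcaccgcagCCCCTTTCTCTTCCggt
RPL22L1, chr3:170870186-170870215, minus strand: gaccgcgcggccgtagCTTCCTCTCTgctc
RPS27L, chr15:63157468-63157497, minus strand: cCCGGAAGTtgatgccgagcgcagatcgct
RPL7L1, chr6:42879596-42879625, plus strand: cgcgCCGGAAGTgcggcgccgtagctagga
Both genes without a pyrimidine run, RPS27L and RPL7L1, are paralogues, and they had the lowest and the highest log2 fold change of the members described.

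RPS27L encodes a paralogue of RPS27 and is known as a gene that p53 induces. Its intensities were 115, 69.2 and 109 in shNT and 53.3, 48.4 and 50.4 in shPKCi. All 3 shPKCi arrays lay below all shNT arrays, and shNT replicate 2 lay closest to them. RPS27L was thus 1.88-fold lower in shPKCi, a log2 fold change of -0.91 ± 0.18 (SE) with a limma adjusted p of 0.00602. RPS27 itself read 5274, 4418 and 5207 in shNT and 4462, 4385 and 4199.5 in shPKCi, where shNT replicate 2 lay among the shPKCi arrays (log2 fold change -0.19, SE 0.10, adjusted p = 0.272). Its start carries a run of 9 pyrimidines (chr1:153990742-153990771, plus strand: gcaggatttccgctttcgCTCCTTTCCggc), unlike that of RPS27L.

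RPL7L1, a paralogue of RPL7 that takes part in assembly of the large subunit, rose. It read 326, 255 and 328 in shNT and 546, 506 and 537 in shPKCi, with the lowest shPKCi array well above the highest shNT array. The log2 fold change was 0.82 (SE 0.12, adjusted p = 0.00142), or 1.76-fold higher. RPL7 read 4709.8, 3705 and 5062 in shNT and 4679, 4268 and 4013 in shPKCi, with overlapping groups and a log2 fold change of -0.05 (95% interval -0.34 to 0.25, adjusted p = 0.865).

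RPL22 and its paralogue RPL22L1 moved in opposite directions. RPL22 is an RNA-binding protein on the outer face of the large subunit, and its loss is known to raise RPL22L1 in mice. RPL22 had intensities of 761, 580.2 and 693 in shNT and of 474, 429 and 479 in shPKCi. RPL22L1 read 80.3, 65.2 and 98.0 in shNT and 128, 110.4 and 105 in shPKCi. In neither gene did the groups overlap, though shNT replicate 2 was the lowest shNT array in both. RPL22 was 1.46-fold lower (log2 fold change -0.55, SE 0.12, adjusted p = 0.0108) and RPL22L1 1.42-fold higher (0.51, SE 0.15, adjusted p = 0.0424). The call of RPL22L1 was lost in 5 of the 6 fits without 1 array, with adjusted p from 0.0694 to 0.158, and kept without shNT replicate 3. RPL22 missed the threshold without shPKCi replicate 2 (adjusted p = 0.0563).

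**Figure D2:**
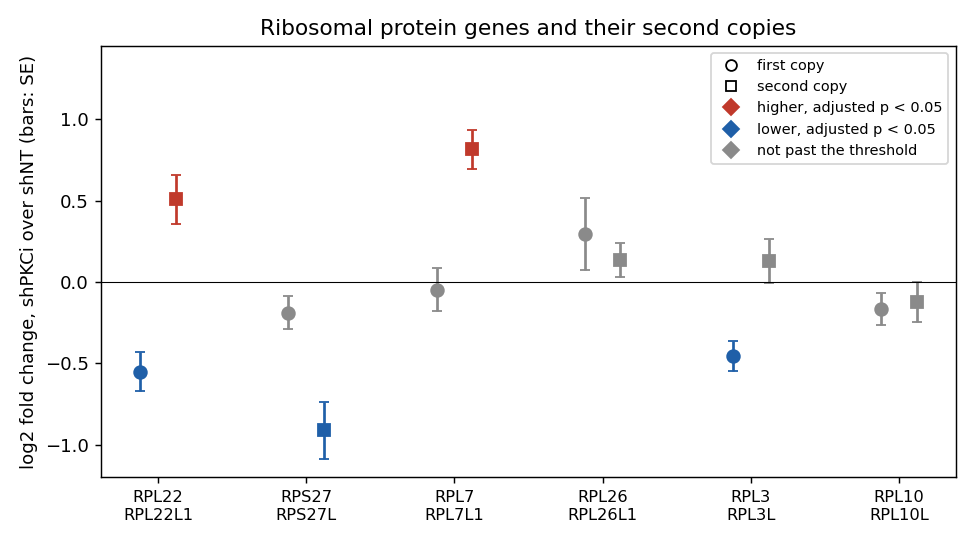
Log2 fold change with SE of 6 ribosomal protein genes (circles) and their paralogues (squares); colour gives the limma call. RPL22 (-0.55) and RPL22L1 (0.51) lie on opposite sides of 0, and RPS27L and RPL7L1 lie far from RPS27 and RPL7.

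Other paralogue genes differed less. RPL39L, best known from the testis, read 425, 314 and 431 in shNT and 318, 309 and 336 in shPKCi (log2 fold change -0.27, adjusted p = 0.22). Without shNT replicate 2, which lay among the shPKCi arrays, its adjusted p was 0.00993. No other fit without 1 array called RPL39L, while the fit with array weights did. RPL26L1 (0.14, adjusted p = 0.449) and RPL36AL (0.16, adjusted p = 0.39) did not pass. RPL3L, a muscle gene, and RPL10L, a testis gene, were at percentiles 46.6 and 40.8 of signal, and their log2 fold changes were 0.13 and -0.12 (adjusted p = 0.597 and 0.574). Of the 10 paralogues, 2 rose (20%, against 9.55% of all genes), 2 fell (20%, against 8.95%) and 6 did not pass.

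In the large subunit, RPL28 and RPL3 were lower with little spread among replicates. RPL28, a large subunit protein that budding yeast lacks, read 720.0, 699 and 711 in shNT and 474, 489.6 and 486 in shPKCi. The ranges were narrow and far apart, and the log2 fold change was -0.56 (SE 0.09, adjusted p = 0.00218), or 1.47-fold lower. RPL3, whose protein reaches towards the peptidyl transferase centre, read 3376, 3681 and 3422 in shNT and 2493, 2505 and 2655 in shPKCi. It was 1.37-fold lower (log2 fold change -0.45, SE 0.09, adjusted p = 0.00821), and shNT replicate 2 was here the highest array. RPL13 was 807, 859.7 and 749 in shNT and 654, 608 and 639 in shPKCi (log2 fold change -0.34, SE 0.10, adjusted p = 0.0351). Its 2 dimmer probe sets had log2 fold changes of -0.14 and 0.31, neither past the threshold over all probe sets (adjusted p = 0.467 and 0.183), and the call rested on the brightest. RPL13 kept the call in 2 of the 6 fits without 1 array, those without shNT replicate 2 or 3.

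RPL29, a large subunit protein also known to bind heparin, was the only higher gene that is no paralogue. It read 534, 452 and 513 in shNT and 693, 754 and 650.2 in shPKCi (log2 fold change 0.48, SE 0.11, adjusted p = 0.0119). Its other probe set, of similar brightness, read 620.5, 539 and 542 in shNT and 504, 495 and 565 in shPKCi, with a log2 fold change of -0.12 (adjusted p = 0.515 over all probe sets). The 2 probe sets of RPL29 thus disagreed in sign, and which of them follows the RPL29 transcript was not tested. RPL29 also missed the threshold without shPKCi replicate 2 (adjusted p = 0.0648).

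In the small subunit, RPS23 was the only lower gene apart from paralogues. The RPS23 protein lies at the decoding site. Its gene read 567, 565 and 666 in shNT and 485, 444 and 459 in shPKCi (log2 fold change -0.37, SE 0.10, adjusted p = 0.0346). RPS23 lost the call in the 5 fits without 1 array other than the one without shNT replicate 2, with adjusted p from 0.0566 to 0.137.

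**Figure D3:**
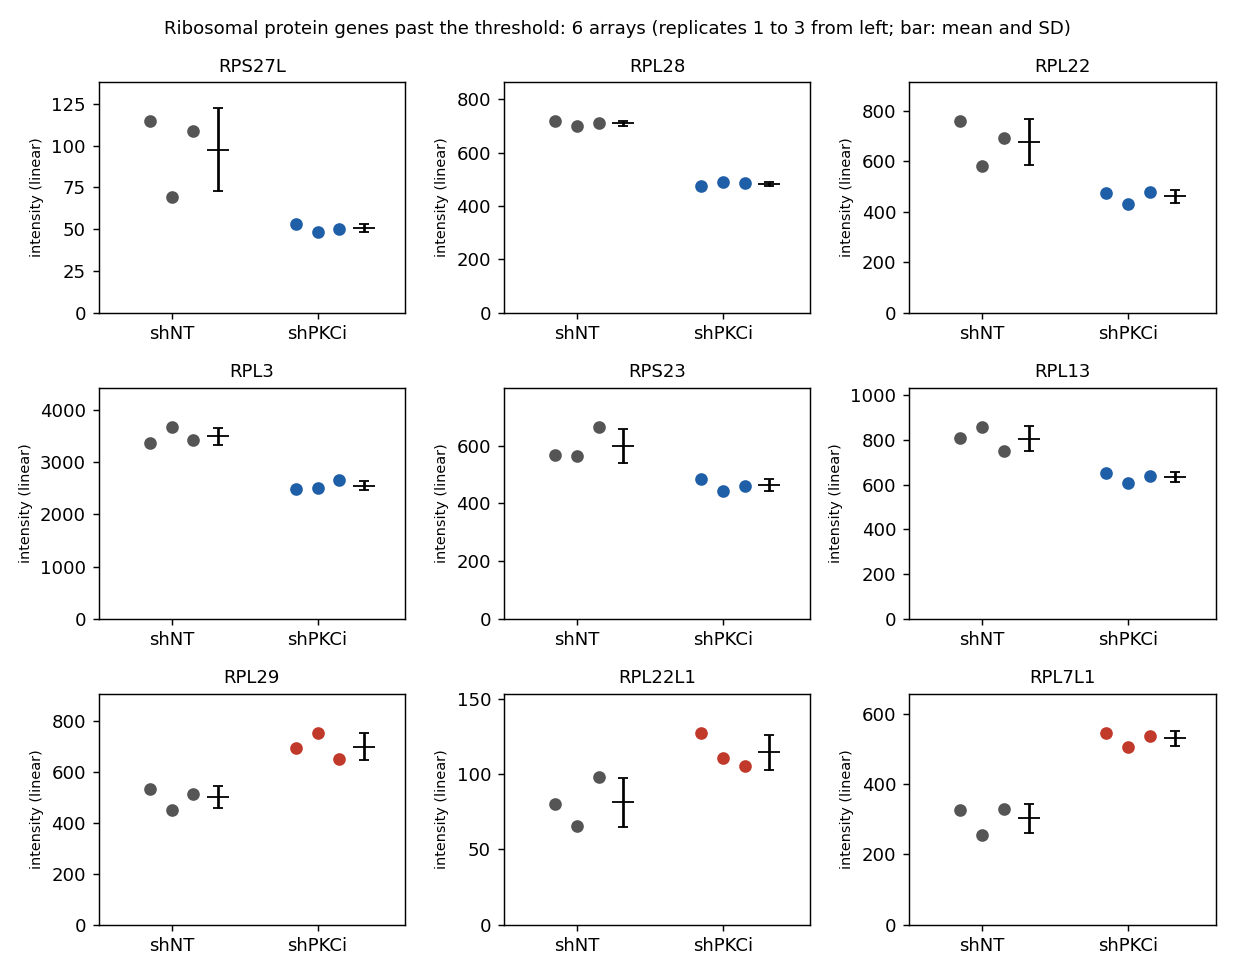
Linear intensity of the 9 ribosomal protein genes past the threshold whose levels are given, in each of the 6 arrays (points, replicates 1 to 3 from left to right), with the group mean and SD (bar). In all 9 panels the 3 shPKCi points lie on one side of the 3 shNT points, which the choice of genes by p favours. RPS27L shows the low shNT replicate 2, and RPL28 shows the narrow spread.

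A further 4 members had an adjusted p between 0.05 and 0.1, and all 4 had negative log2 fold changes. Their groups did not overlap, but the 4 were picked by p from the same arrays, so this adds no support. RPL12, a protein of the stalk base, read 6696, 6909 and 6824 in shNT and 5618, 5603 and 5555 in shPKCi (log2 fold change -0.28, SE 0.09, adjusted p = 0.0509). Its 3 other probe sets had log2 fold changes of -0.28, -0.26 and -0.57, the last with an adjusted p of 0.0225 over all probe sets. RPS9, at the mRNA entry channel, had -0.36 (adjusted p = 0.0547), RPL8, near the peptidyl transferase centre, -0.27 (adjusted p = 0.0846), and RPS29 -0.29 (adjusted p = 0.0846).

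Arrays of the groups separated downward more often among the members than among all genes. All 3 shPKCi arrays lay below all 3 shNT arrays in 20 of 68 members (29.4%, against 17.8% of all genes) and above them in 5 (7.35%, against 18.0%). The lower pattern held for 11 of 25 small subunit genes and 9 of 43 large subunit genes, a difference that was not tested. Median log2 fold changes were -0.16 and -0.06. These shifts were small: RPS2, at the mRNA entry channel, read 5444, 5539 and 5516 in shNT and 4942, 4866 and 4877 in shPKCi, which did not pass (log2 fold change -0.17, SE 0.09, adjusted p = 0.241). RPS3 beside it had -0.18 (adjusted p = 0.235) and RPS15 0.15 (adjusted p = 0.353). Of the 6 genes listed for the mRNA channel and decoding site, RPS23 alone passed (16.7% lower, against 8.95% of all genes).

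Structural groups of the large subunit showed few changes. RPL5 and RPL11, which carry the 5S rRNA and bind MDM2, had log2 fold changes of 0.11 (95% interval -0.25 to 0.47, adjusted p = 0.724) and -0.0013 (-0.22 to 0.22, adjusted p = 0.996). The stalk genes RPLP1 and RPLP2, whose proteins recruit elongation factors, had -0.21 (adjusted p = 0.248) and -0.04 (adjusted p = 0.873). Of 8 measured genes at the peptide tunnel and its exit, RPL22 passed (12.5% lower, against 8.95% of all genes). The others, RPL4, RPL17, RPL19, RPL23A, RPL26, RPL31 and RPL35, lay between -0.13 and 0.30. RPS6, the small subunit substrate of S6 kinase, had -0.12 (adjusted p = 0.52). FAU, made as a fusion to a ubiquitin-like protein, had 0.08 (adjusted p = 0.777). Of 15 measured genes mutated in Diamond-Blackfan anaemia, an inherited failure of red cell formation, limma called 0, where 9.55% of all genes were higher and 8.95% lower. At an unadjusted p under 0.05, 1 of the 15 was higher and 2 lower, against 2764 and 2709 of all 18404 genes. The median of the 15 was -0.06.

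Single arrays set the spread of several members. The array of shNT replicate 2 held the lowest shNT value in 46 of 68 genes, a count not made over all genes. The members' median deviation from the 6-array mean was -0.03 there, against 0.12 and 0.10 in shNT replicates 1 and 3. In the shPKCi arrays it was -0.0014, -0.08 and -0.08. The median deviation of all genes was 0.04 in shNT replicate 2 and -0.01 and -0.02 in shNT replicates 1 and 3. RPL17 read 377 in shNT replicate 2 and 925 and 832 in the other shNT arrays, and RPL26 read 1353 there against 2486 and 2629.9. RPL23 was low in a different array, at 97.2 in shNT replicate 1 against 163 and 180.1. The median SD of a member over the shNT arrays was 0.14 on the log2 scale, and over the shPKCi arrays 0.07. Over all genes these medians were 0.14 and 0.10, so shNT had the larger spread there too. Over shNT replicates 1 and 3 alone the members' median SD was 0.06, a value that rests on fewer arrays. By signal 35 members were above percentile 99 of all genes and 45 above percentile 95.

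**Figure D4:**
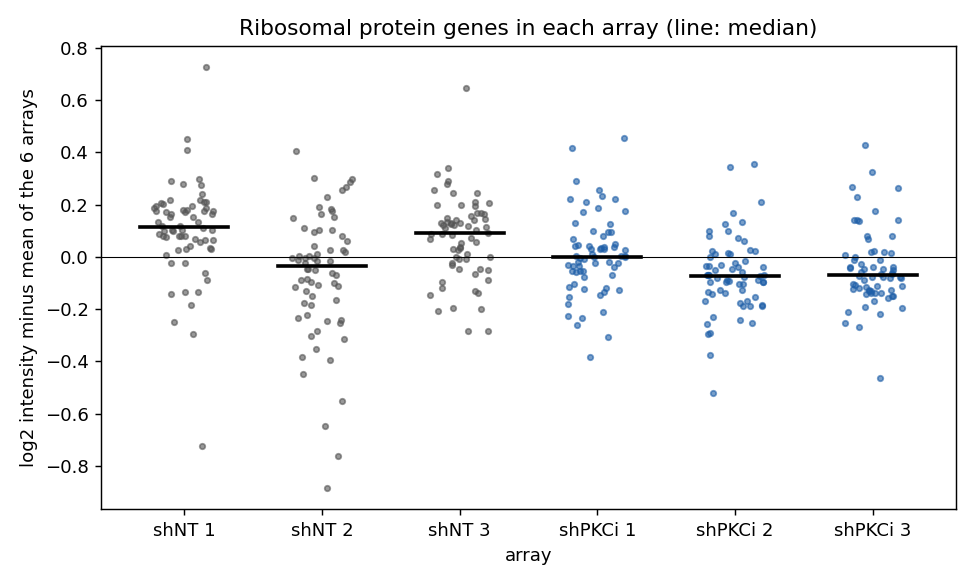
Log2 intensity of 66 ribosomal protein genes minus the mean of the 6 arrays, for each array (points are genes, lines are medians, and both Y-linked paralogues are left out). The median of shNT replicate 2 lies below 0 beside the shPKCi arrays, and those of shNT replicates 1 and 3 lie above.

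Of 22 members with more than 1 probe set annotated to their symbol alone, 33 further probe sets gave a test. Of these, 1 was higher and 1 lower, the first for RPL27A and the second for RPL12. The higher RPL27A probe set read 88.3, 131 and 77.4 in shNT and 174, 168 and 209 in shPKCi (log2 fold change 0.93, adjusted p = 0.00886), while its brightest had -0.15 (adjusted p = 0.431), both over all probe sets. Ribosomal protein genes have many processed pseudogenes whose transcripts can bind the same probes, so each level is uncertain to that degree. Of 19 measured ribosomal protein pseudogenes, limma called 2, both lower and both copies of RPL13A: RPL13AP5 (log2 fold change -0.48, adjusted p = 0.00975) and RPL13AP20 (-0.39, adjusted p = 0.0355). The lower share of 10.5% was near the 8.95% of all genes, and the pseudogene median was -0.10. RPL13A itself had only probe sets with several symbols.

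The starts of the members were rich in pyrimidine runs. RefSeq promoter windows (250 bases before to 50 after the start, GRCh38.p14) were found for 57 of 68 members, and 43 of these (75.4%) had a run of 5 or more C or T over the start, against 11.9% of 27305 genes with a window and 7 of 66 mitochondrial ribosomal protein genes. The ETS core CCGGAAGT was found on either strand in 10 of 57 member windows (17.5%, against 4.95% of genes). Among the 66 mitochondrial ribosomal protein genes 11 had it (16.7%). The TATA core TATAAA was in 6 members (10.5%, against 14.0% of genes) and the YY1 core AAGATGGC in 6 (10.5%, against 3.52%). Of the mitochondrial ribosomal protein genes 3 had the TATA core (4.55%) and 19 the YY1 core (28.8%). The YY1 core was thus more frequent there than among the members. These matches describe letters and not binding. Of 42 members with a run, Y-linked genes left out, 2 were higher and 5 lower, with a median log2 fold change of -0.10. Of 13 without one, 1 was higher and 1 lower, with a median of -0.03. Among all genes 9.55% were higher and 8.95% lower. A difference between members with and without a run was not tested. Among the paralogues, RPL26L1 had no run at either of its 2 starts in the table, and RPL36AL had a run of 15 pyrimidines.

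Few of the other genes with TOP mRNAs passed the test. Of 20 measured, EIF4B and EIF3F, which encode initiation factors, were lower, with log2 fold changes of -0.43 and -0.39 (adjusted p = 0.0127 and 0.0176). Limma called 0 higher. At an unadjusted p under 0.05, 0 were higher and 4 lower, against 2764 and 2709 of all 18404 genes. The 2 lower genes are 10% of the list, near the background of 8.95%, and the list's median was -0.03. Without shPKCi replicate 1 or 3 no gene of the list passed (adjusted p of 0.0505 and 0.0519 for EIF4B, and of 0.0508 and 0.054 for EIF3F). EIF3F also missed the threshold without shNT replicate 1 (adjusted p = 0.0633) and without shPKCi replicate 2 (0.0894). After cyclic loess 5 of the 20 were lower, where 10.1% of all genes were.

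Several regulators of ribosomal protein mRNAs were higher. LARP1, which binds TOP mRNAs, rose by a log2 fold change of 0.46 (adjusted p = 0.0116), its relative LARP4 by 0.86, the GABP subunit gene GABPB1 by 0.67 and TBPL1, a TBP-related factor, by 0.84. Of 19 regulators these 4 rose (21.1%), where 9.55% of all genes were higher, and limma called 0 lower. At an unadjusted p under 0.05, 9 of the 19 were higher and 1 lower, against 2764 and 2709 of all 18404 genes. Without shNT replicate 2, 7 of the 19 rose, where 10.5% of all genes were higher. For MYC the value was 0.23 (adjusted p = 0.149, and 0.0423 without shNT replicate 2). MTOR had 0.16 (adjusted p = 0.354) and the S6 kinase gene RPS6KB1 0.26 (adjusted p = 0.0731).

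Chaperones that hold single ribosomal proteins before assembly were higher in 5 of 9 genes (55.6%, against 9.55% of all genes). LTV1, a small subunit assembly factor bound near RPS3, read 837, 591 and 818 in shNT and 1607, 1707 and 1406 in shPKCi, 2.12-fold higher (log2 fold change 1.08, SE 0.15, adjusted p = 0.000937). RRS1, which helps to load RPL5 and RPL11, rose by 0.95 (adjusted p = 0.000433), BCCIP, a partner of RPL23, by 0.83 and PDCD2L, a partner of RPS2, by 0.65. RPL5, RPL11, RPS3, RPS2 and RPL23 did not themselves pass the test. RPS19BP1, the gene taken by its symbol only, rose by 0.75 (SE 0.11, adjusted p = 0.00145), and RPL34-DT, dim on all arrays, had -0.11 (adjusted p = 0.8).

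Mitochondrial ribosomal protein genes, which serve the separate ribosome of that organelle, were higher more often than the background of 9.55%. Of 74 taken by their symbols, 28 rose (37.8%) and limma called 0 lower, with a median log2 fold change of 0.30. At an unadjusted p under 0.05, 40 were higher and 1 lower, against 2764 and 2709 of all 18404 genes. The 74 include the pseudogene MRPS31P5, which did not pass (log2 fold change -0.05, adjusted p = 0.803). MRPL50 rose by 0.94, MRPL20 by 0.87 and MRPL46 by 0.77, with adjusted p at or below 0.00231. Without shPKCi replicate 1, 16 rose, where 5.82% of all genes were higher, and without shPKCi replicate 2, 17 rose, where 5.42% were. No test of the difference between the 2 families was made, and their values stand side by side as a description.

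**Figure D5:**
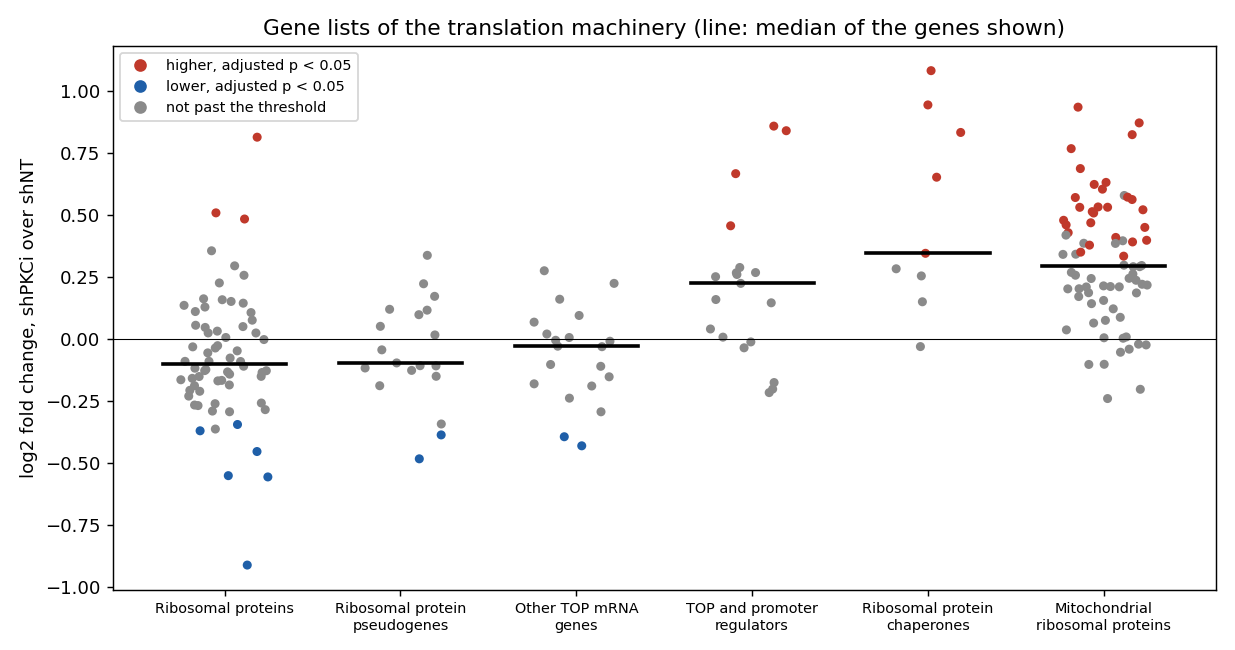
Log2 fold change of shPKCi over shNT for 6 gene lists of the translation machinery (points are genes, colour gives the limma call, lines are medians of the genes shown, both Y-linked paralogues left out). The 66 cytosolic ribosomal protein genes shown have a median of -0.10, and the 74 mitochondrial ones, the pseudogene MRPS31P5 among them, have a median of 0.30.

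Of 8 measured genes listed for the sensing of free ribosomal proteins and for ribosome turnover and quality control, 1 rose, 2 fell and 5 did not pass. These shares are 12.5% higher and 25% lower, against 9.55% and 8.95% of all genes. MDM2, the ubiquitin ligase that RPL5 and RPL11 bind, read 1471, 1150.1 and 1446 in shNT and 706, 652 and 664 in shPKCi, a fall in mean log2 intensity from 10.40 ± 0.20 to 9.40 ± 0.06 (SD, n = 3 each; limma adjusted p = 0.000411). CDKN1A, a cell cycle inhibitor gene that p53 induces, fell by 0.56 (adjusted p = 0.00261). NUFIP1, a receptor for the autophagy of ribosomes, rose by 0.67 (adjusted p = 0.011).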

How the data were processed

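Total RNA of the 6 samples was labelled with biotin and hybridised to arrays, per the labels' protocols. The deposited table holds 1 intensity per probe set and array. Submitters' processing notes name RMA, a method of background correction, quantile normalization and summary, whose version is not given in the sources used here. The range of the values shows a linear scale.

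Intensities of the 32321 probe sets were taken to log2. The platform annotation gave 1 symbol to 19158 probe sets and several to 1388; the brightest probe set by mean represented each of 18404 genes. Genes were fitted with limma 3.58.1 in R 4.3.3 (lmFit, eBayes, 6 arrays, no covariate; 5.52 prior degrees of freedom), which was tested on simulated data, with Benjamini-Hochberg adjustment over all genes and a threshold of 0.05. The probe sets of one gene were compared in a fit over the 19158. No filter on low values was used, so that all 68 members were tested. Intervals are at 95%.

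Members and gene lists were chosen with earlier results of these data known. Full statistics were given for up to 10 members of smallest adjusted p in each direction, for members of the role lists, for up to 4 genes of each further list, and for PRKCI, MYC, LARP1, MTOR, RPS6KB1 and MDM2. RPL12, RPL8, RPS29, RPS6, RPL23 and RPL27A were named after their values were known. Fits were repeated with a replicate block, without each array, with 3 other normalizations, a signal filter, other probe set choices, other variance models, a stricter threshold and treat. Promoter windows and start sites are from RefSeq, GRCh38.p14.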

Additional observations from a re-analysis of the deposited data

How the results depend on the processing

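The number of lower ribosomal protein genes, 7, was 14 after cyclic loess between arrays, 14 after removal of each array's smooth trend with signal, 16 with array weights (of all genes 1858, 1860 and 2336 were lower in these fits), 3 at an adjusted p under 0.01 and 4 with treat against a fold of 1.1. The number of higher ones, 3, was 1 at an adjusted p under 0.01. The members' median log2 fold change, -0.11, was -0.21 after cyclic loess, -0.18 after the trend was removed and -0.06 with arrays centred on their median, and it was negative in every fit run. Over all genes, 870 were higher and 902 lower at an adjusted p under 0.01, and 1032 and 1010 with treat, against 1758 and 1648. With arrays centred on their median 2170 were higher and 1321 lower, and of the members 3 and 5. Without 1 array, 1 to 3 members were higher and 3 to 12 lower, the median ran from -0.17 to -0.07, and 997 to 1935 of all genes were higher and 1048 to 1959 lower. RPL28 and RPL3 were lower in every fit run. RPS27L was lower in every fit that held it, and the filter at the median signal left it out. RPL7L1 was higher in every fit except that with its dimmest probe set (adjusted p = 0.0979). With the probe set of lowest mean, RPL29 turned to -0.12 and RPL13 to 0.31. Of 64 members above the median signal, 10 were lower (15.6%, against 17.2% of genes in that fit). A trended robust variance gave 10 lower members (14.7%, against 9.75% of all genes). With the replicate block, 3 members were higher and 5 lower (7.35%, against 7.83% of all genes lower). In that fit RPL13 (adjusted p = 0.077) and RPS23 (0.0627) lost their calls. Deviations of same-numbered samples from their group means correlated at 0.12, -0.06 and -0.18. With so few arrays per group, these values cannot tell whether same-numbered samples shared a culture or a batch. The cause of these shifts was not tested, apart from the threshold and the number of arrays. Dim members such as RPL3L and RPL10L lie at signals where no detection call was used.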
